A study of Mus musculus with 9 samples.

Results

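Cytosolic ribosomal proteins build the small and large subunits of the ribosome outside mitochondria. Their genes were taken as the rows whose symbol is Rps or Rpl followed by a number, with at most one letter of a, x, y or l and one further digit, together with Rpsa, Rplp0, Rplp1 and Rplp2. The S6 kinases, whose symbols begin alike, were left out. The rule gave 84 of 24015 rows, 33 of the small and 51 of the large subunit, in all 9 libraries. RNA was measured in adipocytes grown from stromal vascular cells of mouse inguinal fat at day 7, in F1 offspring of both strains (F1), in 129X1/SvJ (129, which the series calls obesity-resistant) and in C57BL/6J (B6, called obesity-prone), with 3 libraries each. All 3 groups had the same treatment. For 48 hours, medium with 10% serum held insulin (850 nM), T3 (1 nM), rosiglitazone (1 µM), isobutylmethylxanthine (0.5 mM), dexamethasone (1 µM) and indomethacin (125 nM), and then the last 3 agents were withdrawn. The labels do not give the age and sex of the mice, the direction of the F1 cross or whether replicate libraries stem from different mice or dishes. P-values therefore measure only the spread between these libraries, which may be technical.

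Ribosomal proteins are made in near-equal numbers, since each ribosome carries 1 copy of most of them, and their messenger RNAs are among the most abundant of any growing cell. In mammals these RNAs begin with a C followed by a run of pyrimidines, the 5′ terminal oligopyrimidine (TOP) motif, through which the kinase mTOR and the RNA-binding protein LARP1 set how much of each is translated. Differentiating adipocytes take up insulin signals that act through mTOR, and many ribosomal protein genes have processed pseudogenes scattered over the genome.

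To look for pyrimidine runs near the start, the RefSeq promoter table (GRCm38.p6) was searched. It held 63 of the 84 genes. A C followed by at least 5 further C or T letters lay within 20 bases on either side of the annotated start, on the gene's strand, in 41 of them (65.1%), against 8859 of 27025 genes in the table (32.8%). The letters CGGAAG, searched on both strands of the 300-base window, were in 42 of the 63 (66.7%) and in 18.8% of all genes. The longer CCGGAAGT, whose matches are all matches of that motif too, was in 12 (19.0%) and in 4.31% of all. A match is a description of these letters only. The following 30-base windows are those of genes on which later results turn, with the pyrimidine run in capitals. They lie at chr10:23787180-23787209 (minus strand), chr7:118116141-118116170 (minus), chr2:32961706-32961735 (plus), chr8:123102326-123102355 (plus) and chr4:86857347-86857376 (minus), in the order given.
Rps12: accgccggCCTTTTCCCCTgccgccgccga
Rps15a: ccggcccaCTCTCTTTCTgccatcttccct
Rpl12: ggatccgtCTTTTCggctttcggctcggag
Rpl13: tgacgtcaCTTCCCTTTCgcctgattttga
Rps6: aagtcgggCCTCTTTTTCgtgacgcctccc
The run of Rps12 has 11 letters, those of Rps15a, Rpl13 and Rps6 have 10, and that of Rpl12 has 6. Counted from the annotated start, whose first base is 1 and the base before it -1, the runs begin at 9 (Rps12), -15 (Rps15a), 3 (Rpl12), -16 (Rpl13) and -1 (Rps6). None of these 5 begins at the annotated first base itself. That of Rps6 begins 1 base before and spans it, so the annotated first base is a C followed by pyrimidines. In the window, 22 of the 63 genes had no run.

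Values were RPKM, the reads of a gene divided by its summed exon length in kilobases and by each 1000000 reads assigned to genes. Depth was 39686986 to 53410947 assigned reads in F1, 23710908 to 28473083 in 129 and 19130022 to 26931438 in B6. Every F1 library was deeper than every parental one. Adipocyte markers (6 of 6 tested) summed to 35532 to 38007 RPKM in F1, 31649 to 34183 in 129 and 27749 to 31782 in B6. Most of that sum was Fabp4, and the other 5 summed to 5741 to 5914 RPKM in F1, 6188 to 6542 in 129 and 5910 to 6928 in B6. Beige adipocyte markers (4 of 4) summed to 119 to 129 RPKM in F1, 98.9 to 106 in 129 and 63.5 to 66.6 in B6. In 129 minus B6, Ucp1 (2.55) and Cidea (0.79) rose while Cox8b (-0.88) and Ppargc1a (-0.59) fell, and without Ucp1 the list summed to 68.7 to 74.9 RPKM in F1, 37.6 to 41.6 in 129 and 54.0 to 55.8 in B6. Macrophage markers (4 of 4 present) summed to at most 10.3 RPKM in any library, and the endothelial and mast cell lists, each with 1 of 3 genes tested, to at most 3.16 and 2.68 RPKM. No listed marker was at 0 in all libraries.

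Most ribosomal protein genes were abundant in every group. Over the 9 libraries, the 73 main copies whose exons share no same-strand stretch above 50% with another listed gene had a median of 410 RPKM and a coefficient of variation between genes of 42.6%. The highest were Rplp1 at 1112 RPKM, an acidic protein of the stalk that recruits translation factors, Rpl41 at 968, the smallest protein of the large subunit, Rpl23a at 761, Rplp2 at 659, the partner of Rplp1 in the stalk, and Rps29 at 607. At the low end stood Rps15a at 40.7 RPKM, a protein of the small subunit, and Rpl22 at 45.8, a large-subunit protein that binds RNA. Both had long deposited exon lengths, 5134 bases for Rps15a and 2497 bases for Rpl22, where the principal GENCODE vM21 transcripts have 640 and 474. RPKM divides by the deposited length, so their levels are not comparable with those of genes counted over 1 short transcript.

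Rpl26, Rpl30, Rps27 and Rpl34, proteins of the standard ribosome, were measured at or near nothing, and in each case another listed gene overlapped most of the exon length. Rpl26 (mm9 chromosome 11, 68715068 to 68718036, plus strand), a large-subunit protein near the exit tunnel, had 0 reads in all 9 libraries, which allows up to 3 reads, or 0.289 RPKM in the shallowest. Rpl30 (chromosome 15, 34370263 to 34373031, minus), Rps27 (chromosome 3, 90016589 to 90017570, minus) and Rpl34 (chromosome 3, 130429745 to 130433316, minus) averaged 0.549, 1.64 and 1.91 RPKM over the 9 libraries. The files place Gm15772 over 520 of the 543 exon bases of Rpl26 (95.8%), Gm12191 over 476 of the 626 of Rpl30 (76.0%), Rps27rt over 345 of the 575 of Rps27 (60.0%) and Rpl34-ps1 over 413 of the 689 of Rpl34 (59.9%), each on the same strand. These 4 overlapping genes also had 0 reads in every library. RefSeq (GRCm38.p6) puts all 4 of them on a chromosome other than that of the gene they cover here. No other ribosomal protein gene shared more than 1 base with a same-strand gene (Rpl13a, with Mir5121). By contrast, 6 genes whose exons lay under a gene of the opposite strand kept levels between 190 RPKM (Rpl31, 33.0% of its exon length) and 530 RPKM (Rpl32, 8.33%), and Rpl5 averaged 193 RPKM with 47.8% of its length covered in this way. The sources used here do not say how reads in shared exons were assigned. The values of these 4 genes are therefore uncertain, and no level is read from them.

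**Figure D1:**
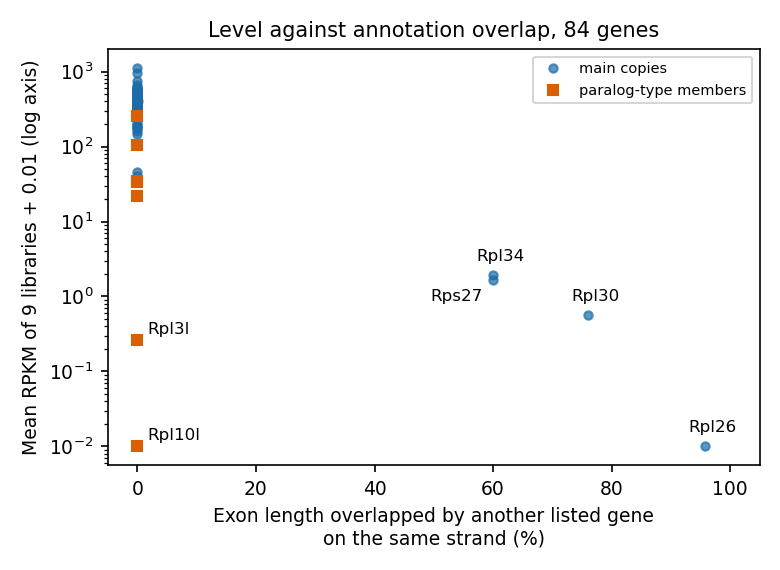
Mean RPKM of 9 libraries plus 0.01 (log axis) against the percentage of a gene's exon length that lies under another listed gene of the same strand, for 84 genes. Circles are main copies and squares paralog-type genes; Rps27 and Rpl34 (about 60%), Rpl30 (76.0%) and Rpl26 (95.8%) sit far below the other main copies.

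Shared sequence also limits the counting. Of all 50-base stretches of the principal GENCODE vM21 transcripts, a median of 53.5% per gene occurred unchanged in at least 1 other annotated gene. Both strands were searched, and genes that overlap at the same place count too, such as Tbc1d8 for Rpl31 (37.1%). The share is thus not one of distant copies only. Of the 84 genes, 81 shared such stretches with a pseudogene. The share ran from 0%, as for Rpl39l and Rpl3l, to 98.6% for Rps27, all of it with Rps27rt. It was 92.1% for Rpl10, 84.6% for Rps6, 83.6% for Rps12 and 80.3% for Rpl13. Among the 73 main copies, the 42 that shared more than 50% had a median of 411 RPKM and the other 31 a median of 407 RPKM. The sources used here give neither the read length nor the treatment of reads that map to several places, so the values of the genes with high shares are uncertain.

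Taken as a pool, ribosomal protein RNA took a smaller share of the reads in F1 than in 129. The 84 genes held 2.26%, 2.24% and 1.99% of assigned reads in F1 replicates 1 to 3, 2.46%, 2.40% and 2.54% in 129, and 2.33%, 2.20% and 2.34% in B6. The means were 2.16% ± 0.152 in F1, 2.47% ± 0.0694 in 129 and 2.29% ± 0.0799 in B6 (SD, n = 3 each). All 129 libraries lay above all F1 and all B6 libraries, while F1 and B6 overlapped. The same order of groups stood after median-of-ratios rescaling, with 2.30%, 2.26% and 2.03% in F1, 2.47%, 2.40% and 2.55% in 129, and 2.26%, 2.15% and 2.30% in B6, where the F1 values span those of B6. In such bulk RNA, fewer cells of a type and less RNA per cell cannot be told apart.

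**Figure D2:**
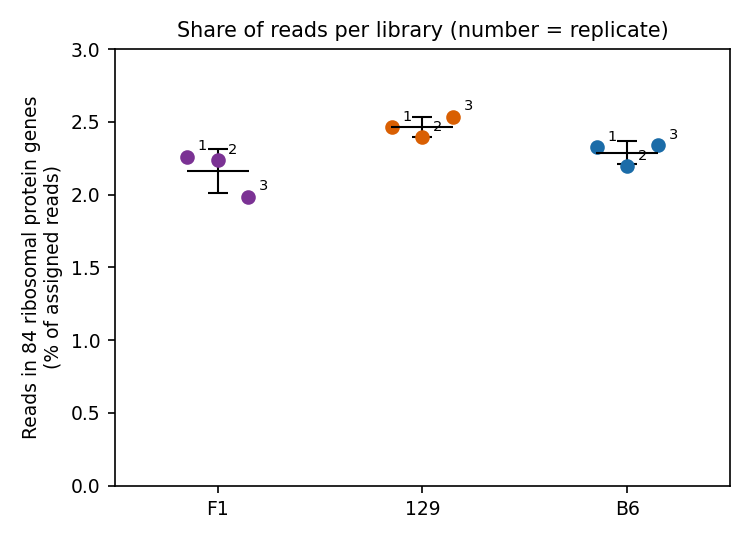
Percentage of assigned reads in the 84 ribosomal protein genes, by library (points, numbered by replicate), with mean and SD (bars), in F1, 129 and B6. The 129 libraries sit between 2.40% and 2.54%, above every F1 and B6 library, and F1 replicate 3 is lowest at 1.99%.

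Between the parental strains, ribosomal protein genes leaned higher in 129, by small amounts. Expression was tested for the 80 members with an RPKM of at least 1 in at least 3 libraries, within a fit over 11542 genes (limma on log2(RPKM + 1), Benjamini-Hochberg adjusted p under 0.05). Rpl26, Rpl10l, Rpl30 and Rpl3l fell below that filter. In 129 minus B6, 14 of 80 rose (17.5%) and 4 fell (5%), where 15.9% of all genes tested rose and 21.7% fell. The share that rose is thus close to that of all genes, and the share that fell is smaller. The median log2 fold change was 0.10 over the 80 genes and -0.03 over all genes, and 66 of the 80 were above 0. In 38 genes (47.5%) all 3 libraries of 129 lay above all 3 of B6, against 20.8% of all genes, and in 7 (8.75%) all lay below, against 29.0%. By subunit, 5 of 33 small-subunit genes rose and 1 fell, and 9 of 47 large-subunit genes rose and 3 fell. The number that rose depended on single libraries, at 4 without 129 replicate 3, 5 without 129 replicate 1 and 8 without 129 replicate 2. It was 6 without B6 replicate 1 or without B6 replicate 2, and 7 without B6 replicate 3. Of all genes tested, 13.5% to 16.1% rose in these fits. With voom on the recovered reads 28 of the 80 rose, where 18.5% of all genes did. Over all genes, calls split into 1834 higher and 2499 lower, but into 2257 and 1995 after median-of-ratios rescaling, where the 80 gave 21 higher and 3 lower.

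Rpl13 (chromosome 8, 125626250 to 125629142), a large-subunit protein, had the largest rise among the genes that passed. Its RPKM was 417, 464 and 488 in the 129 libraries, against 374, 348 and 395 in the B6 libraries. The groups did not overlap. An exact permutation test, two-sided, gave p = 0.1, which is the lowest value possible with 3 libraries a side. It rose by 0.29 on the log2 scale (SE 0.08, adjusted p = 0.0204), and the call was lost without 129 replicate 2 (0.28), without 129 replicate 3 (0.24) or without B6 replicate 2 (0.24). Rps3a1, a small-subunit protein at the solvent side of the platform, had 551, 517 and 550 RPKM in 129, against 461, 448 and 451 RPKM in B6. It rose by a log2 fold change of 0.25 (SE 0.06, adjusted p = 0.00614), a call that held in all 17 alternatives. Rpl10, which joins the large subunit late in its assembly and is needed before the subunits can meet, had 664, 653 and 668 RPKM in 129, against 589, 527 and 554 RPKM in B6. Its rise of 0.25 (SE 0.07, adjusted p = 0.0116) also held in all 17. Rplp1 (0.24, adjusted p = 0.0406) and Rps20, a protein of the small subunit's head (0.24, adjusted p = 0.0236), completed the 5 largest rises. Both lost their call in 7 and 5 of the 9 fits that leave out 1 library, within 0.21 to 0.25 for each of them.

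The falls in 129 lay elsewhere. Of the 4 that passed, Rps4l and Rpl39l are copies of other ribosomal protein genes, Rpl34 is one of the overlapped genes, and Rpl29 is a small basic protein of the large subunit. Rpl29 had 252, 235 and 248 RPKM in 129, against 288, 278 and 285 RPKM in B6. The groups did not overlap, and it fell by 0.21 on the log2 scale (SE 0.07, adjusted p = 0.0316). The call was lost in 5 of the 9 fits that leave out 1 library, at -0.23 to -0.18 over all 9, and after median-of-ratios rescaling (-0.18). Rpl34 fell by 0.59 on the log2 scale (SE 0.13, adjusted p = 0.0049), on counts of 19 to 31 reads per library in 129 and of 30 to 61 reads in B6, and shares the uncertainty of the overlapped genes.

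The 7 paralog-type genes were set beside their main copies. Rps4l (chromosome 6, 148303178 to 148304118) has 1 exon and is listed by GENCODE vM21 as a transcribed processed pseudogene of Rps4x, the X-linked gene of the small-subunit protein S4. The 2 sequences share 626 of 783 bases aligned over the coding sequence of Rps4x (79.9%). Rpl39l, a copy of Rpl39, which lines the exit tunnel, is best known from testis, and shares 130 of 153 bases (85.0%). Because these 2 pairs hold the copies that fell in 129 minus B6, 75 bases of each are shown from GENCODE vM21 transcripts, the first of the coding sequence or, for Rps4l, which has no annotated one, those aligned to the start of that of Rps4x, with bases that differ within a pair in capitals.
Rps4l: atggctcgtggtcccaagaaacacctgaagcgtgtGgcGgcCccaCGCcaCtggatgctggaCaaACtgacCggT
Rps4x: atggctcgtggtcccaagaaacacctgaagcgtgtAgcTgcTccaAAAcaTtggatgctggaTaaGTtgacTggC
Rpl39l: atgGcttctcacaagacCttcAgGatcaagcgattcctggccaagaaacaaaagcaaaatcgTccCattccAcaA
Rpl39: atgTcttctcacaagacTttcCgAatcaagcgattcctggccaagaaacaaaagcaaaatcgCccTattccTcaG
The first pair differs at 12 of these 75 bases and the second at 8.

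Rps4l had 33.1, 31.1 and 27.6 RPKM in F1, 22.0, 22.7 and 23.9 RPKM in 129, and 49.3, 43.2 and 49.6 RPKM in B6. No group overlapped another, with F1 between its parents. The log2 fold change was -1.02 for 129 minus B6 (SE 0.07, adjusted p = 1.8e-06), -0.61 for F1 minus B6 (SE 0.07, adjusted p = 0.000146) and 0.40 for F1 minus 129 (SE 0.07, adjusted p = 0.00234), contrasts that share libraries. All 3 calls held in every one of 17 alternatives, and F1 minus the mean of the parents was -0.11 (adjusted p = 0.253). Rps4x had 432, 411 and 377 RPKM in F1, 492, 469 and 483 RPKM in 129, and 458, 419 and 431 RPKM in B6. It leaned the other way in 129 minus B6 (0.14, adjusted p = 0.0873). Of the 50-base stretches of Rps4l, 14.9% recurred in another gene, Rps4l-ps, and 72.2% of those of Rps4x recurred elsewhere.

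Rpl39l had 20.1, 19.7 and 18.0 RPKM in F1, 20.4, 18.2 and 23.3 RPKM in 129, and 27.2, 23.3 and 29.7 RPKM in B6. Every F1 and every 129 library lay below every B6 library, with the highest 129 library just under the lowest of B6. It fell in 129 minus B6 by 0.36 on the log2 scale (SE 0.10, adjusted p = 0.014), a call lost without 129 replicate 2 or without B6 replicate 3 (-0.28 in both), and in F1 minus B6 by 0.45 (SE 0.10, adjusted p = 0.0058), which held in all 17 alternatives. Rpl39 itself varied widely within groups, at 301, 466 and 300 RPKM in F1, 524, 514 and 585 RPKM in 129, and 462, 351 and 517 RPKM in B6.

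The remaining copies differed by smaller amounts. Rps27l, a relative of Rps27 that p53 induces in human cells and that shares 76.2% of its coding bases, had 250 ± 15.1 RPKM in F1, 239 ± 14.5 in 129 and 269 ± 17.6 in B6 (SD, n = 3 each), with -0.17 for 129 minus B6 (adjusted p = 0.0665), which passed without 129 replicate 3 (-0.22) or without B6 replicate 2 (-0.23). Rpl22l1, a relative of Rpl22 with 66.9% identity, had 96.1 ± 9.33 RPKM in F1, 106 ± 4.95 in 129 and 110 ± 9.95 in B6. Rpl7l1, a relative of Rpl7 with 50.1% identity, had 32.2 ± 1.18, 34.6 ± 1.25 and 36.4 ± 2.82 RPKM in F1, 129 and B6, and fell in F1 minus B6 (-0.17, adjusted p = 0.0481). Rpl3l, a striated-muscle form of Rpl3, stayed at 0.174 to 0.344 RPKM in all libraries, where Rpl3 had 299 to 379. Rpl10l, known from testis as a retrocopy of Rpl10, had 0 reads in every library, which allows up to 3 reads each, or 0.153 RPKM in the shallowest. In 129 minus B6, 66 of the 73 main copies had a log2 fold change above 0, and 0 of the 5 paralog-type genes tested did, at -1.02 to -0.05. That difference between the 2 sets was not tested.

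**Figure D3:**
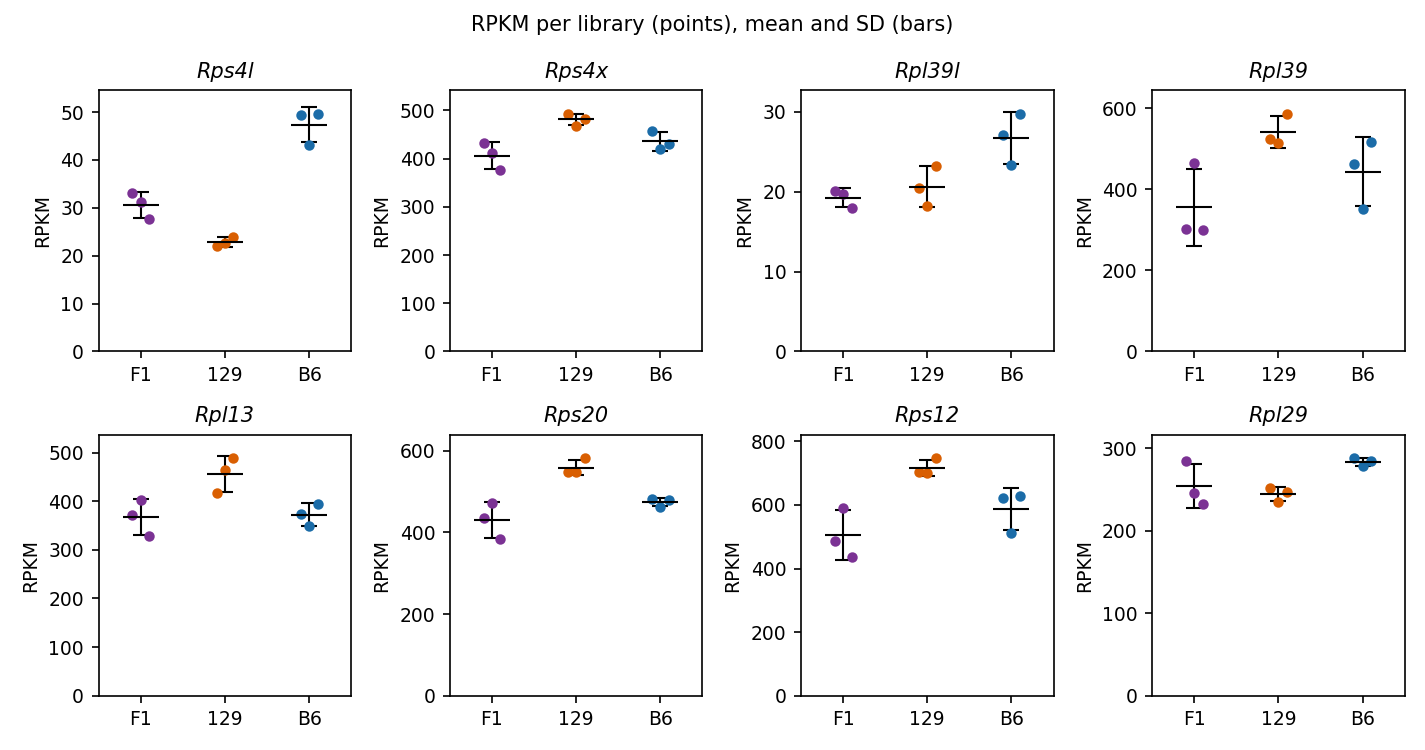
RPKM of 8 genes in the 3 libraries of F1, 129 and B6 (points), with mean and SD (bars); each axis starts at 0. Rps4l separates all groups, with F1 at 27.6 to 33.1 RPKM between 129 (22.0 to 23.9) and B6 (43.2 to 49.6), while its main copy Rps4x is highest in 129.

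Relative to 129, the F1 carried less ribosomal protein RNA across both subunits. In F1 minus 129, 40 of 80 genes fell (50%) and 1 rose (1.25%), where 15.7% of all genes tested fell and 12.0% rose. The falls that passed ran from -0.17 to -0.63 on the log2 scale. The median was -0.19 over the 80 genes and -0.01 over all genes. In 48 genes (60%) every F1 library lay below every 129 library, against 24.7% of all genes, and in 1 gene (1.25%), Rps4l, above, against 19.8%. Of the small subunit 18 of 33 fell, and of the large subunit 22 of 47. The count of falls was 14 without F1 replicate 3, where 1381 of 11542 genes fell. It was 16 without 129 replicate 1 and 13 without 129 replicate 3, where 1303 and 1438 of all genes fell. In each of these fits the share of the 80 was the larger one, but by much less than in the main fit. After median-of-ratios rescaling 29 of the 80 fell, where 1615 of all genes did. Of the 42 main copies with more than 50% of their 50-base stretches shared, 24 fell, with a median of -0.20, and of the other 31, 16 fell, also with a median of -0.20. Every F1 library was deeper than every 129 library, so depth and group cannot be told apart.

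Rps12, a small-subunit protein of the beak, fell clearly. It had 486, 591 and 437 RPKM in F1, against 703, 700 and 746 RPKM in 129. Every F1 library was lower, and it fell by 0.52 on the log2 scale (SE 0.11, adjusted p = 0.00581). Rpl12, at the base of the stalk, had 395, 466 and 372 RPKM in F1, against 572, 533 and 563 RPKM in 129 (-0.44, SE 0.08, adjusted p = 0.00326). Rps15a had 34.6, 39.8 and 31.5 RPKM in F1, against 46.0, 45.4 and 48.7 RPKM in 129 (-0.40, SE 0.08, adjusted p = 0.00525). Neither gene's groups overlapped. Rps20 fell by 0.38 (SE 0.07, adjusted p = 0.00282). The calls of Rps12, Rpl12, Rps15a and Rps20 held in all 17 alternatives. Rpl39 had the largest fold change, -0.63 (SE 0.17, adjusted p = 0.0216), and the largest spread, with F1 replicate 2 at 466 RPKM and the other F1 libraries at 301 and 300. Its call was lost without F1 replicate 1 (-0.53), F1 replicate 3 (-0.53), 129 replicate 1 (-0.66) or 129 replicate 3 (-0.58).

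**Figure D4:**
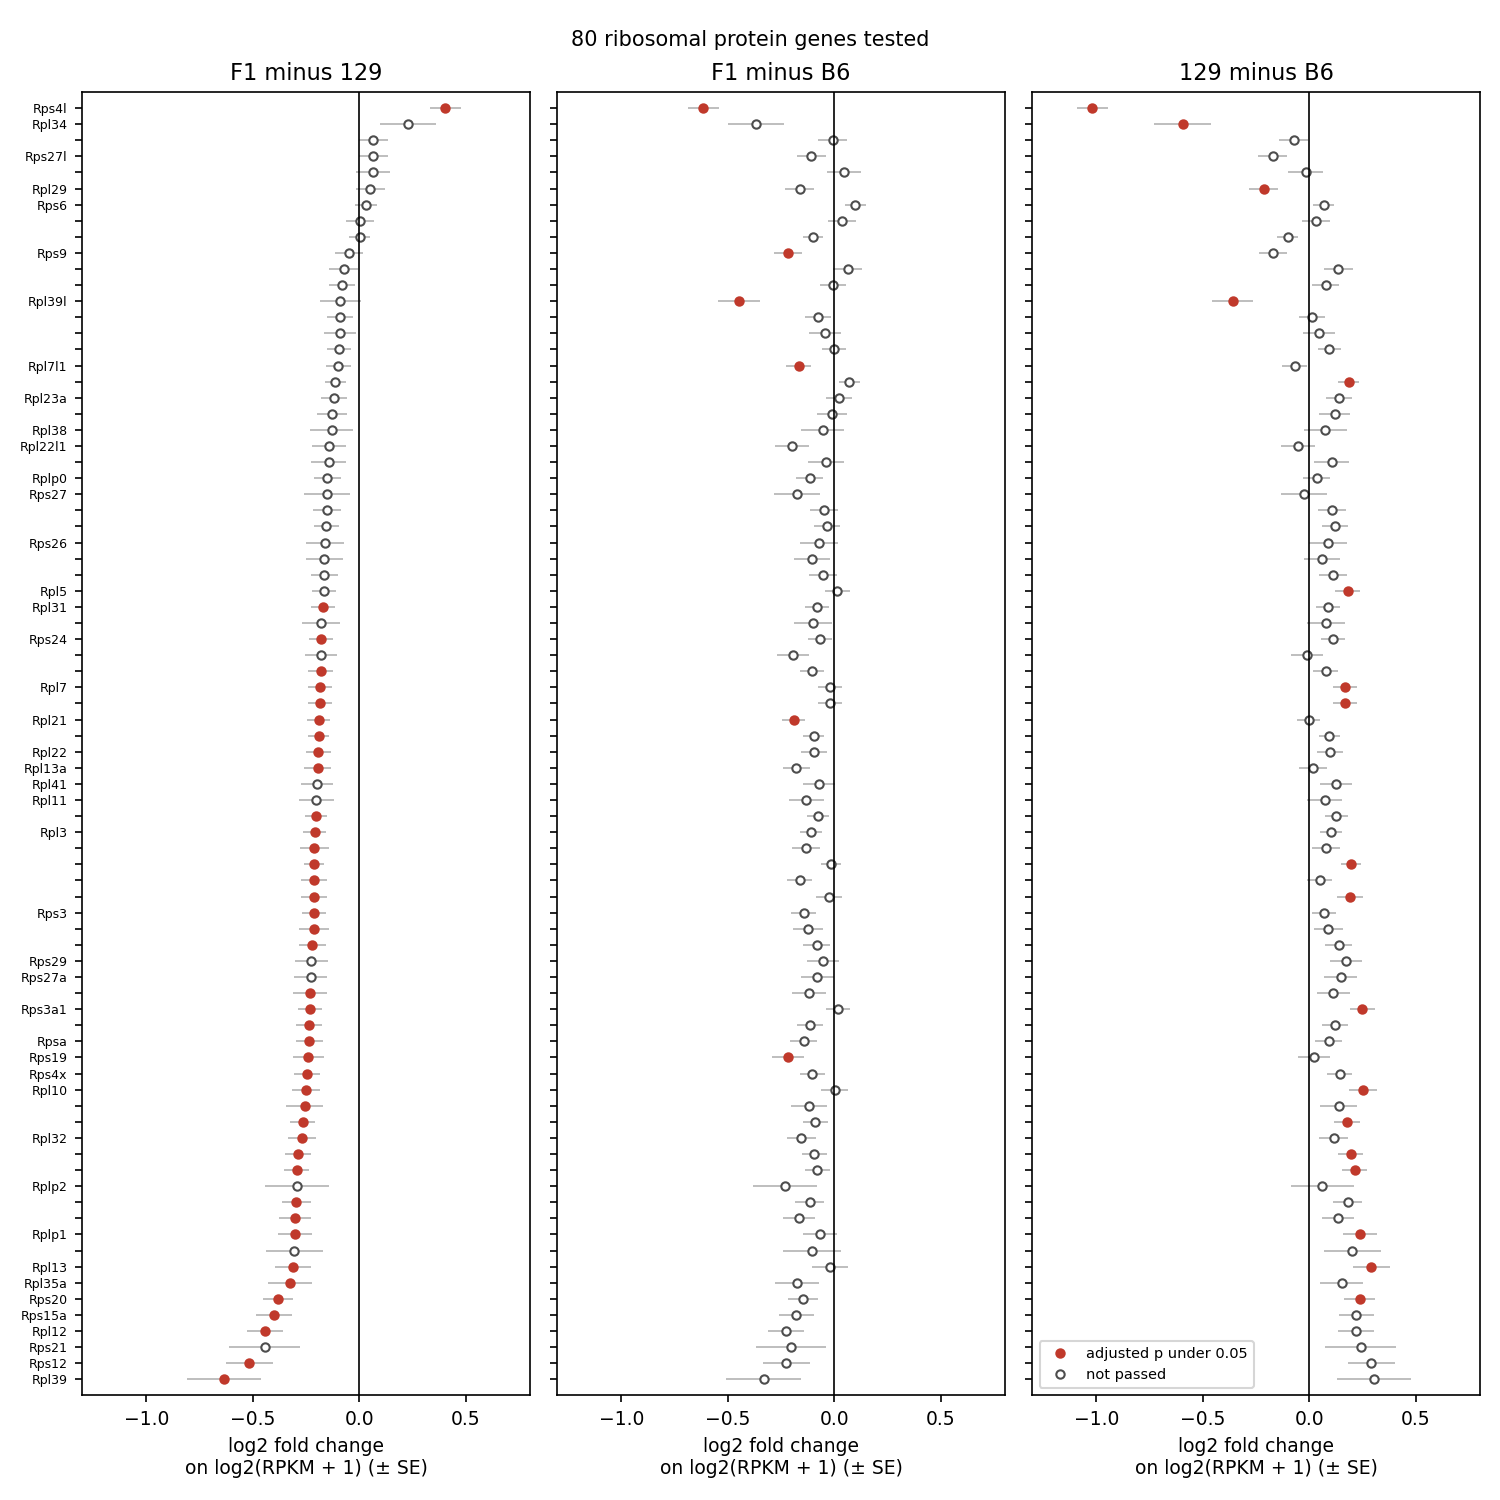
Log2 fold changes on log2(RPKM + 1) with SE for 80 ribosomal protein genes, in F1 minus 129 (left), F1 minus B6 (middle) and 129 minus B6 (right), ordered by the left panel, with names for the genes the text describes; filled points have adjusted p under 0.05. Filled points number 40 left of 0 in F1 minus 129, 6 in F1 minus B6 and 4 in 129 minus B6, where 14 lie right of 0.

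Against B6, few of these genes passed the test in F1. In F1 minus B6, 0 of 80 genes rose and 6 fell (7.5%), where 11.0% of all genes rose and 20.2% fell, by limma. At an unadjusted p under 0.05, 0 rose as well, and voom called 1. The median was -0.10 over the 80 genes and -0.04 over all genes. In 17 genes every F1 library lay below every B6 library, and in 1 gene, Rps6, above. The shares of 21.2% below and 1.25% above compare with 28.2% and 16.0% of all genes. After median-of-ratios rescaling 1 gene rose and 2 fell, and over all genes 1904 rose and 1591 fell, against 1270 and 2329 as deposited. The count that fell was 19 without B6 replicate 2, 12 without F1 replicate 2, and 2 without F1 replicate 3, B6 replicate 1 or B6 replicate 3. Of all genes, 2418, 1864, 1831, 1622 and 1949 fell in these fits, in that order. The share of the 80 was slightly larger than that of all genes without B6 replicate 2, and smaller in the others. Besides Rps4l, Rpl39l and Rpl7l1, the falls were Rps9 (-0.22, adjusted p = 0.0281), a small-subunit protein near the mRNA entry, Rps19 (-0.22, adjusted p = 0.0473), the gene most often mutated in Diamond-Blackfan anaemia, and Rpl21 (-0.19, adjusted p = 0.0218), a large-subunit protein. All 3 lost their call after median-of-ratios rescaling (-0.16, -0.16 and -0.13) and without F1 replicate 3 (-0.16, -0.15 and -0.14), B6 replicate 1 (-0.21, -0.17 and -0.18) or B6 replicate 3 (-0.19, -0.20 and -0.18). Rps9 and Rps19 lost it also without F1 replicate 1 (-0.22 and -0.24), and Rps19 without any 1 of the 129 libraries (-0.22 in each).

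The F1 lay below the mean of its parents for many of these genes. F1 minus mid-parent gave 0 rises and 22 falls (27.5%) by limma, where 8.35% of all genes rose and 14.8% fell. At an unadjusted p under 0.05, 0 rose, and voom called 0. The median was -0.14 over the 80 genes and -0.03 over all genes, and 13 of 33 small-subunit and 9 of 47 large-subunit genes fell. The largest falls were Rpl39 (-0.48), Rps12 (-0.37), Rpl12 (-0.33), Rps15a (-0.29) and Rpl39l (-0.27). Only Rpl12 of these 5 kept its call in all 16 alternatives. The number of falls was 2 without F1 replicate 3, 5 without B6 replicate 1 and 6 after median-of-ratios rescaling. It was 7 without 129 replicate 3 and 8 without 129 replicate 1. Of all 11542 genes, 1117, 1345, 1250, 1459 and 1400 fell in these fits, in that order. Each is a larger share than that of the 80. The share of the 80 was the larger one without B6 replicate 3 (12 falls) or B6 replicate 2 (33). There 1604 and 1964 of all genes fell. It was also larger without F1 replicate 1 (22), F1 replicate 2 (19) or 129 replicate 2 (21). Without F1 replicate 3 the median was -0.09 over the 80 genes and -0.02 over all. After rescaling it was -0.10 and 0.01.

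F1 replicate 3 stood apart for these genes. It had the lowest value of all 9 libraries for 71 of the 80 genes, and it lay below the mean of F1 replicates 1 and 2 for 80 of 80. The median difference from that mean was -0.18 on the log2 scale over the 80 genes, and -0.01 over all 11542 genes, of which 6373 were below 0. Short genes differed most. The median was -0.23 for the 30 ribosomal protein genes under 600 bases of exon length. It was -0.17, -0.16 and -0.15 for those of 600 to 1000, 1000 to 2000 and above 2000 bases. The last class held 4 genes, among them Rps15a and Rpl22, whose deposited lengths far exceed those of their principal transcripts. Over the other genes tested the median was -0.12 for the 377 genes under 600 bases, and -0.11, -0.07 and 0.01 in the longer classes. Across genes, which share these libraries and are not independent, the difference had a Pearson correlation with log2 exon length of 0.44 over the 80 and 0.38 over all genes. In F1 minus 129, the 80 genes had medians of -0.22, -0.17, -0.19 and -0.18 in these classes, and the other genes 0.03, 0.03, 0.01 and -0.02. Gene length thus moved with the values of F1 replicate 3, and its part in the F1 results was not tested. At the other end, 129 replicate 3 had the highest value for 42 of the 80 genes and 129 replicate 1 for 18.

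**Figure D5:**
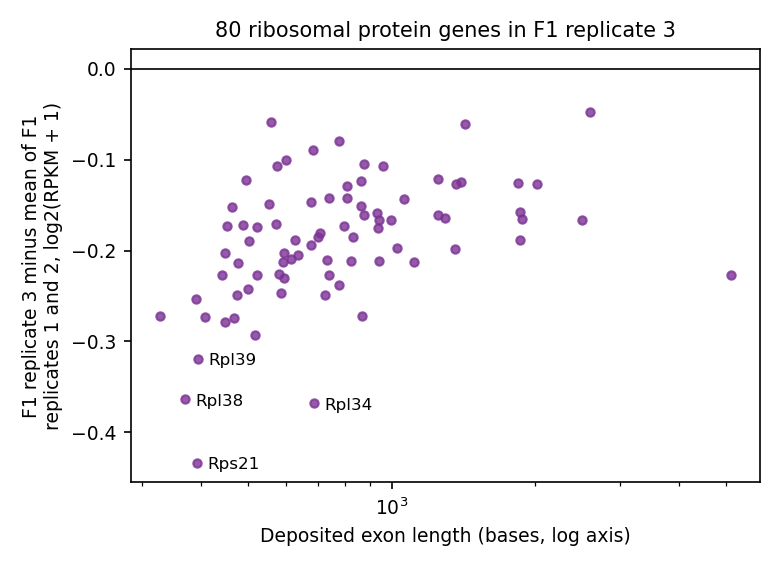
Difference of F1 replicate 3 from the mean of F1 replicates 1 and 2 on log2(RPKM + 1), against deposited exon length (log axis), for 80 ribosomal protein genes (points). Every point lies below 0; Rps21, Rpl34, Rpl38 and Rpl39 are the lowest.

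Markers of proliferation and of other cell types also moved in these comparisons. Proliferation markers (4 of 4 tested) summed to 8.04 to 8.69 RPKM in F1, 9.99 to 11.8 in 129 and 11.2 to 11.5 in B6, and 3 of 4 fell in F1 minus 129 and 4 of 4 in F1 minus B6. Adipocyte progenitor markers (4 of 4) summed to 306 to 386 RPKM in F1, with F1 replicate 3 lowest, 438 to 458 in 129 and 420 to 565 in B6. Most of that sum was Ly6a, which did not pass in F1 minus 129 (-0.21, adjusted p = 0.244), and the other 3 summed to 51.2 to 58.6 RPKM in F1, 101 to 113 in 129 and 57.8 to 67.1 in B6. Pdgfra and Cd34 fell in F1 minus 129 (-0.95 and -0.98), where Dlk1 gave 0.26 (adjusted p = 0.18). In 129 minus B6, Pdgfra and Cd34 rose (0.88 and 0.47) and Dlk1 fell (-0.47). Smooth muscle markers (4 of 4) summed to 98.2 to 104 RPKM in F1, 127 to 135 in 129 and 124 to 139 in B6, and 2 of 4 fell in F1 minus 129, 4 of 4 in F1 minus B6 and 2 of 4, Myh11 and Cnn1, in 129 minus B6. Of the low markers, Pecam1 (-0.58), C1qa (-0.71) and Cpa3 (-0.32) fell in 129 minus B6. C1qa was 1 of 4 macrophage markers, and the others did not pass there. These were Emr1 (-0.47, adjusted p = 0.0609), Cd68 (-0.31, adjusted p = 0.149) and Csf1r (0.01, adjusted p = 0.94). Pecam1 rose in F1 minus 129 (0.33) and fell in F1 minus B6 (-0.25). The part of all these markers in the results on ribosomal proteins was not tested.

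Ribosomal proteins with further roles gave mixed calls. Rps6, the substrate of S6 kinase, had 334, 314 and 297 RPKM in F1, 312, 299 and 313 RPKM in 129, and 293, 295 and 293 RPKM in B6. Every F1 and every 129 library lay above every B6 library, yet no contrast passed (0.10 for F1 minus B6, adjusted p = 0.16; 0.07 for 129 minus B6, adjusted p = 0.323). Rpl5 and Rpl11, which carry 5S RNA into the large subunit and bind the p53 inhibitor MDM2, differed in their calls. Rpl5 rose in 129 minus B6 by 0.18 (adjusted p = 0.0314), a call lost in 5 of the 9 fits that leave out 1 library, and Rpl11 gave 0.07 (adjusted p = 0.528). Whether the 2 genes differ from each other was not tested. Rplp0, the anchor of the stalk, gave 0.03 in 129 minus B6 (adjusted p = 0.703) and -0.15 in F1 minus 129 (adjusted p = 0.104), and Rplp2 gave 0.06 and -0.29 with wide errors (SE 0.15 in both). Rpsa, which also serves as a laminin receptor, fell in F1 minus 129 (-0.23, adjusted p = 0.02), as did Rps3, a small-subunit protein with a role in DNA repair (-0.21, adjusted p = 0.0183). Rps27a, made as a fusion with ubiquitin, gave -0.23 (adjusted p = 0.0515). Among the Diamond-Blackfan anaemia genes, Rps19 (-0.24), Rps24 (-0.18) and Rpl35a (-0.33) fell in F1 minus 129, and Rps26 gave -0.16 (adjusted p = 0.216).

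Genes that work with the ribosome gave mixed counts, to be read against all genes tested, of which 15.9% rose and 21.7% fell in 129 minus B6 and 12.0% rose and 15.7% fell in F1 minus 129. Of 4 ribosomal proteins outside the symbol rule, 0 passed in 129 minus B6 by limma (1 was higher at an unadjusted p under 0.05, and voom called 1 higher), and in F1 minus 129 Gnb2l1, the scaffold also called RACK1, fell (-0.24, adjusted p = 0.0111). Fau, a fusion with a ubiquitin-like protein, gave 0.11 in F1 minus 129. Of 8 elongation factors, 0 passed in 129 minus B6 by limma (3 were higher at an unadjusted p under 0.05, and voom called 3 higher), and in F1 minus 129 the eEF1B subunits Eef1g (-0.39), Eef1b2 (-0.31) and Eef1d (-0.22) fell. Eef1a1, the most abundant of them, gave -0.10 there (adjusted p = 0.352). Initiation factors split in 129 minus B6, with 5 of 27 higher and 4 lower. Among them Eif3l fell (-0.40) and Eif3e (0.19), Eif4b (0.15) and Eif2s2 (0.16) rose, and 1 of 27 rose and 0 fell in F1 minus 129 by limma, where 1 was lower at an unadjusted p under 0.05 and voom called 0 lower.

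Some other RNAs that begin with a TOP motif differed between strains, against the same shares of all genes. Of 9, 3 rose and 1 fell in 129 minus B6. Gas5, a non-coding host of small nucleolar RNAs, had 17.8 ± 0.70 RPKM in F1, 10.7 ± 0.38 in 129 and 29.7 ± 0.59 in B6 (SD, n = 3 each), a log2 fold change of -1.39 for 129 minus B6 (adjusted p = 3.18e-09). Nap1l1, a histone chaperone, rose by 0.54, Tpt1 by 0.21 and Vim, the intermediate filament vimentin, by 0.20. In F1 minus 129, 1 rose (Gas5, 0.68) and 1 fell (Nap1l1, -0.44). Of 44 ribosome biogenesis genes, 2 rose and 7 fell in 129 minus B6, with Eif6, which keeps the large subunit from joining early, at 0.37, and Polr1b (-0.31) and Polr1a (-0.19), subunits of RNA polymerase I, and its initiation factor Rrn3 (-0.17) lower. In F1 minus 129, 0 rose and 2 fell by limma, where 3 were higher at an unadjusted p under 0.05 and voom called 1 higher. Of 14 genes of mTOR, LARP1 and MYC, 0 rose and 4 fell in 129 minus B6 by limma, where 0 were higher at an unadjusted p under 0.05 or by voom, and voom called 2 lower. The 4 were Mtor itself (-0.58, adjusted p = 1.01e-05), its inhibitor Tsc2 (-0.41), Rptor (-0.15) and the translation repressor Eif4ebp2 (-0.17). In F1 minus 129, 4 of the 14 rose, among them Mtor (0.29) and Tsc2 (0.21), and 1 fell.

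Outside the list, the genes whose profile was most like the mean of the 80 ribosomal protein genes over the 9 libraries were Adc (Pearson r = 0.98), Slc35b1 (0.979), Enox1 (0.96), Pfdn5 (0.957) and Eef1b2 (0.947). These values describe 9 libraries that share their depth and preparation. The profile itself was -0.04, -0.03 and -0.22 in F1 replicates 1 to 3, 0.08, 0.04 and 0.13 in 129, and 0.04, -0.06 and 0.06 in B6, as mean centred log2 values.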

How the data were processed

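The authors deposited 1 RPKM value per gene and library, scaled by exon length and by 1000000 assigned reads. RNA was poly(A)-selected and made into stranded libraries (TruSeq Stranded mRNA), per the labels' protocols. Reads were aligned with STAR to mm9, per the submitters' processing notes. Not given in the sources used here were the read counter, annotation release, versions and filters. The reference mm9 is that of C57BL/6J, and its part in the counts of 129 and F1 reads was not tested. In each library, RPKM times exon length in kilobases summed to 1000000. The values kept steps of 1 read, from which depth and whole reads were recovered, with 100% of rows whole at a tolerance of 0.1 read. Of 24013 symbols, 2 stood on more than 1 row (4 rows), and the row with the highest mean was kept. A spreadsheet had turned 27 symbols into dates. The 5 columns without a name, filled on 31 rows, were left out.

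The 11542 genes that reached an RPKM of 1 in 3 or more of the 9 libraries were fitted as log2(RPKM + 1) with limma 3.58.1 (R 4.3.3; trend, 1 mean per group, shared spread). The log2 scale with this pseudocount understates changes of low genes. Tests were two-sided, with Benjamini-Hochberg adjustment over all genes and a threshold of 0.05. Mid-parent is the mean of the parental log2 values. Errors of RPKM are SD over 3 libraries, and intervals or floors cover counting error only. The procedure was tested on simulated data drawn repeatedly, where the share of false calls averaged near the threshold and lay on either side of it in single draws. The simulated noise was independent between genes. Shifts that many genes of a library share, as in F1 replicate 3, were therefore not covered. Overlaps were computed from the deposited exon coordinates, and sequence measures from GENCODE vM21 and RefSeq tables (GRCm38.p6) with Python 3.11.15 and Biopython 1.88.

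Genes named were, per contrast, the 5 largest rises and falls that passed, the 5 highest and 5 lowest genes tested, genes at 0, paralogs with their main copies, genes with further known roles, overlapped genes, and up to 4 per list by p in 129 minus B6. Others, such as the cell type markers named singly, those of the elongation factor list and the lowest in F1 replicate 3, were chosen after their values were seen. The members and lists were chosen with earlier results of these data known. Alternatives were another pseudocount (0.1), no filter, a filter of 5, median-of-ratios rescaling, rescaling by non-members, voom on recovered reads, a replicate block, pairwise fits and each library left out.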

Additional observations from a re-analysis of the deposited data

How the results depend on the processing

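For 129 minus B6, 14 genes rose, and the number was 8 with no filter, 28 with voom on recovered reads, and 4 to 18 when 1 library was left out; 4 fell, and 2 to 6 did so with 1 library left out. For F1 minus B6, 0 rose, and 1 did so with median-of-ratios rescaling and with voom, where 16.5% and 15.8% of all genes rose. In the main fit 6 fell. The number was 3 with no filter, 2 with median-of-ratios rescaling, 3 in the pairwise fit and 2 to 19 with 1 library left out. Of all genes, 2440, 1591, 2007 and 1622 to 2418 fell there, in that order. For F1 minus 129, 40 fell, and the number was 24 with no filter and 13 to 43 with 1 library left out. There 1886 and 1303 to 1985 of all genes fell. In every setting run 1 rose, where 7.03% to 14.2% of all genes did. For F1 minus mid-parent, 22 fell. The number was 9 with no filter, 6 with median-of-ratios rescaling and 2 to 33 with 1 library left out. Of all genes, 1635, 1250 and 1117 to 1964 fell there, in that order. In every setting run 0 rose, where 4.49% to 13% of all genes did. The no-filter fit adjusts over more genes; the cause of the other differences was not tested. Deviations of same-numbered libraries from their group means correlated at -0.19 to 0.22. Differently numbered libraries were not compared, so these values cannot show whether replicate numbers mark pairs. With the replicate block, 10 rose and 4 fell in 129 minus B6, 0 and 6 in F1 minus B6, 1 and 30 in F1 minus 129, and 0 and 18 in F1 minus mid-parent. The pairwise fit was not run for F1 minus mid-parent, which needs all groups. Most of the single-gene values recomputed kept direction and side of the threshold, while 92 lost their call, 6 gained a call and 8 turned in sign. The 8 were uncalled values of 129 minus B6, namely Rpl22l1 (-0.11 to 0.015 with 1 library left out), Rps27 (0.000723 with median-of-ratios rescaling and -0.11 to 0.060 with 1 library left out), Rplp2 (-0.11 to 0.19) and Rps19 (-0.043 to 0.067). Median-of-ratios rescaling gave all genes a median log2 fold change of 0.01 in 129 minus B6 and 0.01 in F1 minus B6, against -0.03 and -0.04 as deposited. With 3 libraries a group, an exact permutation test of 1 gene cannot go below 0.1.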
